A study of Mus musculus with 12 samples.

Results

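The homeobox, POU and Zic positional factors are transcription factors that lay out the regions of the embryonic brain, and many are kept on in the adult neurons of the region they helped to form. They were taken from the count table by name: the numbered genes of the Lhx, Irx, Dlx, Pax, Meis, Pbx, Zic, Nkx and Pou families and of the sine oculis family of Six3. Of 76 such names among 54429 entries, 62 had at least 10 counts in at least 3 of the 12 libraries, and these 62 genes are the members counted here. They comprise 13 Pou, 9 Nkx, 8 Lhx, 6 Irx, 5 Dlx, 5 Pax, 5 Zic, 4 Pbx and 3 Meis genes and 4 of the sine oculis family.

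Total RNA was sequenced from brain punches of C57BL/6 mice in 4 groups of 3 libraries. The groups were VTA of isolated females, VTA of group-housed females, BLA of isolated males and BLA of group-housed males. BLA and VTA, which in common use mean basolateral amygdala and ventral tegmental area, are given only as abbreviations. Sex is known from the series design only, and the isolated mice are labelled as isolated early in life, with no age given. Every VTA library is therefore female and every BLA library male, so region and sex cannot be told apart in any comparison between the regions. Nothing in the labels ties the 3 libraries of a group to 3 different animals, so the p-values rest on library-to-library spread that may be technical.

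The libraries held between 28278708 and 69276892 counts. Ribosomal RNA loci took 18.6%, 28.6% and 41.8% of the counts in isolated BLA library 3 and group-housed BLA libraries 1 and 2, against at most 1.57% elsewhere. Each region held the markers that its label calls for, and BLA libraries held striatal markers as well. The 8 dopaminergic markers summed to between 973 and 2063 CPM, the count of a gene scaled to library size, in VTA libraries, against 56.6 to 102 CPM in BLA libraries. The 9 cortical and basolateral glutamatergic markers summed to between 132 and 555 CPM in VTA libraries, against 867 to 1776 CPM in BLA libraries. The 12 striatal markers summed to between 289 and 738 CPM in VTA libraries, against 1002 to 3381 CPM in BLA libraries. Their highest sum was in isolated BLA library 1, where the glutamatergic markers had their lowest BLA sum, 867 CPM. The part of striatal tissue in the regional differences was not tested. Levels throughout are CPM, with library sizes adjusted by TMM factors over all 12 libraries. The counts of every 2 libraries of a group differed by more than sampling noise.

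As background, the vertebrate neural tube is divided along its length and from top to bottom by overlapping domains of these factors. Dlx, Lhx2, Lhx6, Lhx8 and Six3 belong to the telencephalon and the rostral forebrain. Irx genes mark the neural plate behind it, Pax5 and Pax8 the border of midbrain and hindbrain, Pax3 and Pax7 the dorsal midbrain, and Nkx2-2 and Nkx6 genes the ventral tube. Meis and Pbx proteins bind DNA together with other homeodomain proteins, and Zic proteins are zinc finger factors of the dorsal neural tube.

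The 250 bases upstream of the start are shown for 4 genes that stand at the ends of the regional contrast, Lhx1 and Pou4f1 on the VTA side and Lhx2 and Six3 on the BLA side. Each window is read on its gene's strand, and capitals mark a match to the MEIS hexamer TGACAG on either strand. The windows are chr11:84525535-84525784 (minus strand) for Lhx1, chr14:104468000-104468249 (minus strand) for Pou4f1, chr2:38339031-38339280 (plus strand) for Lhx2 and chr17:85620584-85620833 (plus strand) for Six3, from RefSeq on GRCm38.p6.
Lhx1: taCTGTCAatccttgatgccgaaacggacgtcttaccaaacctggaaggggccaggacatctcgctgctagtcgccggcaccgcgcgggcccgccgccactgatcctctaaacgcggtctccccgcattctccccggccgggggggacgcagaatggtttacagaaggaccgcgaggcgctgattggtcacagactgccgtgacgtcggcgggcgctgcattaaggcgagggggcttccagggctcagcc
Pou4f1: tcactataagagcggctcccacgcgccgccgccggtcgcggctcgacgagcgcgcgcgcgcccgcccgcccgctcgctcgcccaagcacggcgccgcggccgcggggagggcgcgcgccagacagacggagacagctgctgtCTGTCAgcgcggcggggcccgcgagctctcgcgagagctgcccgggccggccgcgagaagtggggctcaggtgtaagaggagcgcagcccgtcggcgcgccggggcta
Lhx2: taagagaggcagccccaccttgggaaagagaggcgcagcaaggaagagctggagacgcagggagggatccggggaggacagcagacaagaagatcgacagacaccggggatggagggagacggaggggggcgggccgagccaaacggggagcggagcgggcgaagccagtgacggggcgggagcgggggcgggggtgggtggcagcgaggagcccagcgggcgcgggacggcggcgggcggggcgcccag
Six3: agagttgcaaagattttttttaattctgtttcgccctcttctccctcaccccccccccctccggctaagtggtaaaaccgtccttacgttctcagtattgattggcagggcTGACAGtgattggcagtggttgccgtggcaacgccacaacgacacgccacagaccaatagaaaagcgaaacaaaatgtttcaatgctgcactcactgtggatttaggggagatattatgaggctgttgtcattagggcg
The Lhx1, Pou4f1 and Six3 windows hold the hexamer once each, and the Lhx2 window does not hold it. RefSeq start sites were matched for 43 of the 62 genes, in 51 windows. The hexamer stood in 7 of the 51 windows (13.7%), against 15.4% of the 21255 windows of all protein-coding genes. The homeodomain core TAATTA, searched on both strands, stood in 0 of the 51 windows, against 4.31% of all coding windows, and the POU octamer ATGCAAAT in 0, against 1.58%. The median GC content of the windows was 62%, against 55.6% for all coding windows, and the median number of CpG dinucleotides was 14, against 10. A match is a run of letters, not a bound site, and a window without one says nothing of these factors at other distances.

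VTA and BLA punches carried different sets of these factors. All 6 Irx genes, Lhx1, Lhx5, the Pax genes other than Pax6, Pou4f1, Pou4f2 and 8 Nkx genes were higher in VTA. Dlx1, Dlx2, Dlx5, Dlx6, Lhx2, Lhx6, Lhx8, Six3, Meis2 and Pax6 were lower in VTA. Smaller differences, or values that did not pass the test, were found for most Pbx, Zic and Pou genes. A gene was called at a Benjamini-Hochberg adjusted p under 0.05 in edgeR's quasi-likelihood test over all 25009 genes tested.

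Of 60 members tested, 29 were called higher (48.3%) and 17 lower (28.3%) in VTA. Over all genes tested, 24.1% were called higher and 23.7% lower, 47.7% in all. The regions did not overlap in CPM for 24 members higher and 13 members lower in VTA, where the share over all genes was 14.1% and 12.9%, 27.1% in all. Members tested and not called numbered 14, among them Lhx3, Lhx9, Meis3, Pbx3, Pbx4, Zic1, Zic5, Pou2f1, Pou2f2, Pou3f3, Pou3f4 and Pou5f2. The median log2 fold change was 0.92 over the members and 0.02 over all genes. These totals are partly set by the count minimum. It was met in 3 libraries of VTA, and not of BLA, by 22 members, of which 21 were tested and 19 called higher. Irx2, Irx3, Irx4, Irx5, Lhx1, Lhx5, Pax3, Pax5, Pax7, Pax8, Pou4f1, Pou4f2, Nkx2-4, Nkx2-9 and Nkx6-1 were among these 22. The direction of such members was largely set by the minimum. It was met in 3 libraries of BLA, and not of VTA, by 3, of which 2 were tested and both called lower. Of the 37 members that met it in each region, 10 were called higher and 15 lower. In bulk RNA, fewer cells of a type and less RNA per cell cannot be told apart.

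**Figure D1:**
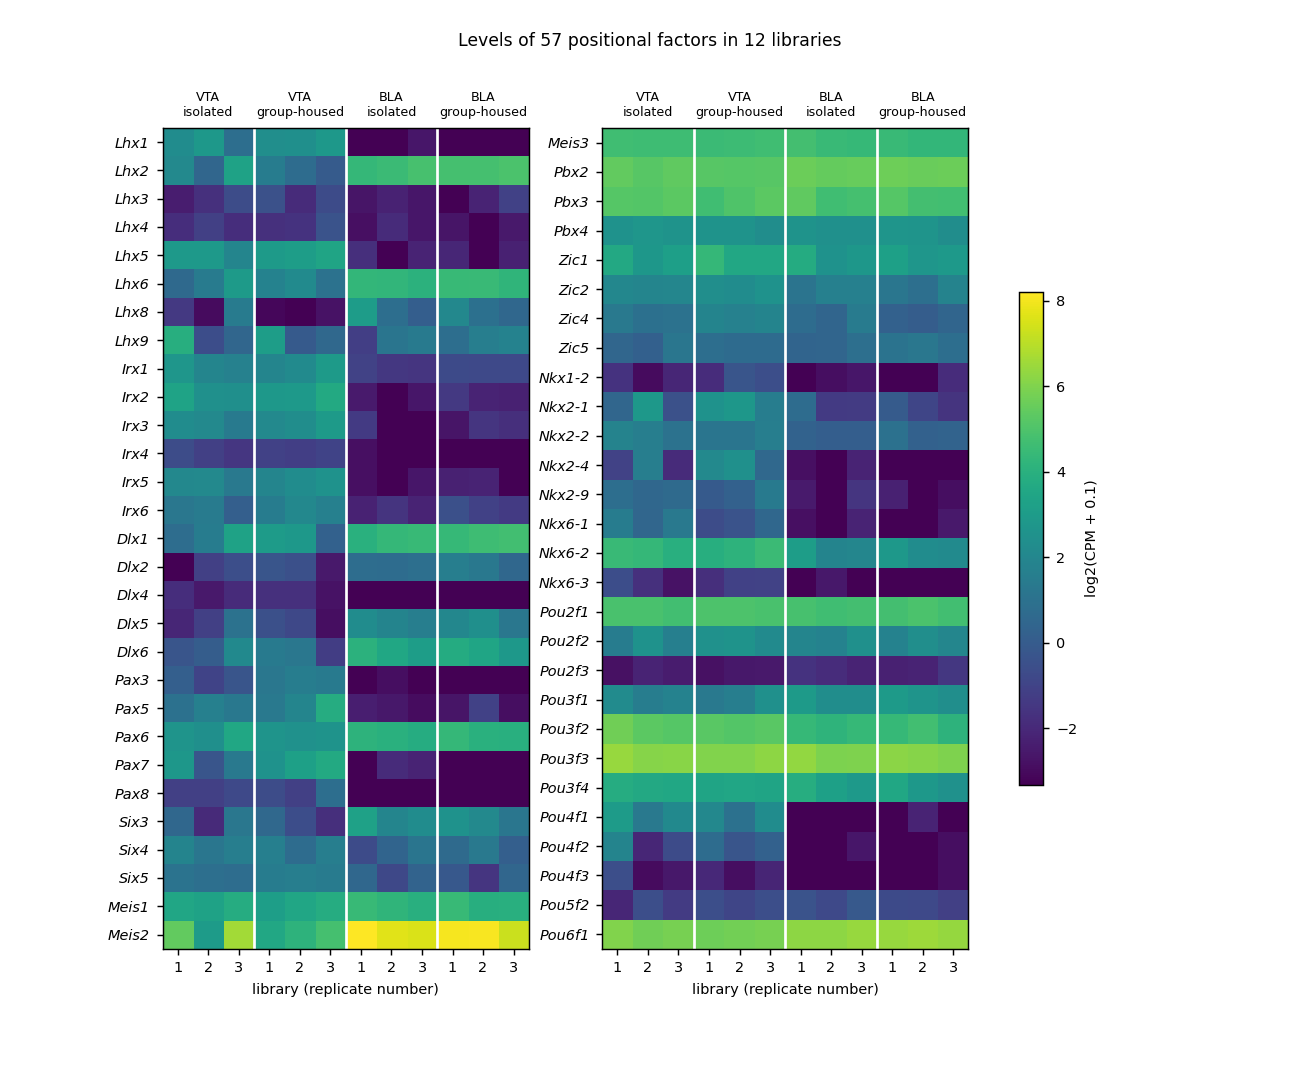
Level of 57 of the members in each library, as log2(CPM + 0.1), with VTA libraries in the left 6 columns and BLA libraries in the right 6 of each panel. Colours compare libraries within a gene, since CPM is not divided by length. Irx, Pax3, Pax7, Lhx1 and Pou4f1 rows are dark in BLA columns, and Dlx1, Lhx2 and Meis2 rows are brightest there.

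The Iroquois genes, homeodomain factors that pattern the neural plate behind the anterior forebrain, were the one family with every member called higher in VTA. Irx2, the most abundant of them in CPM, had between 5.28 and 12.8 CPM (median 6.995) in VTA libraries, against 0 to 0.276 CPM (median 0.0909) in BLA libraries. Its log2 fold change was 6.51 ± 0.39 (SE, n = 6 libraries a region; edgeR adjusted p = 7.01e-08). Irx5 had between 2.45 and 5.73 CPM (median 4.09) in VTA libraries, against 0 to 0.121 CPM (median 0.0493) in BLA libraries, a log2 fold change of 6.60 ± 0.44 (SE; edgeR adjusted p = 6.01e-08). Irx3 had between 2.496 and 7.59 CPM (median 4.48) in VTA libraries and at most 0.284 CPM in BLA libraries. The 2 Irx clusters of the genome behaved alike in direction. Irx1, Irx2 and Irx4 on chromosome 13 had log2 fold changes of 3.67 and 6.51 for the first 2, while Irx4, with 2 counts over all BLA libraries, had a VTA to BLA ratio of 47.3 (95% counting interval 12.9 to 394). Irx3, Irx5 and Irx6 on chromosome 8 had log2 fold changes of 5.17, 6.60 and 3.31. The VTA and BLA libraries did not overlap for any of the 6. Of these, only Irx1 and Irx6 met the count minimum in each region. The direction of Irx2, Irx3, Irx4 and Irx5, which met it in VTA only, was largely set by it. Counting intervals cover counting error only. Between 59.5% and 67.5% of counts from 1 to 20 were even, so intervals are too narrow if both mates of a read pair were counted.

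Among the LIM homeodomain genes, the related pair Lhx1 and Lhx5, known from diencephalic, midbrain and cerebellar neurons, stood on the VTA side. Lhx1 had between 1.71 and 7 CPM (median 5.11) in VTA libraries, against 0 CPM in 5 BLA libraries and 0.0607 CPM in the other. It had 2105 counts over the VTA libraries and 2 over the BLA libraries, a ratio of 682 (95% counting interval 189 to 5639). The neighbouring opposite-strand transcript Lhx1os, which shares no exon bases with Lhx1, was higher too. It had a median of 7.64 CPM in VTA libraries and 0.00815 CPM in BLA libraries. Lhx5 had between 3.65 and 10.5 CPM (median 7.57) in VTA libraries, against 0 to 0.189 CPM (median 0.114) in BLA libraries, a log2 fold change of 6.21 ± 0.43 (SE; edgeR adjusted p = 3.18e-07). Lhx1 and Lhx5 met the count minimum in VTA only, so their direction was largely set by it.

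The telencephalic LIM genes stood on the BLA side. Lhx2, a selector gene of the cortex, had between 0.892 and 9.72 CPM (median 2.19) in VTA libraries, against 20.3 to 30.4 CPM (median 27.5) in BLA libraries. This was a log2 fold change of -3.14 ± 0.47 (SE; edgeR adjusted p = 0.000537). Lhx6, a factor of interneurons born in the medial ganglionic eminence, had a median of 3.01 CPM in VTA libraries and 19.3 CPM in BLA libraries, with no overlap and a log2 fold change of -2.45 ± 0.38 (SE). Lhx8, known from cholinergic neurons of the basal forebrain, had between 0 and 2.71 CPM (median 0.0362) in VTA libraries, against 1.00 to 8.21 CPM (median 1.76) in BLA libraries. Its regions overlapped through 1 VTA library, and the log2 fold change was -4.22 ± 1.16 (SE; edgeR adjusted p = 0.0151). Lhx8 met the count minimum in BLA only, so its direction was largely set by it. Lhx4 was called higher in VTA at a low level, with a mean of 0.301 CPM in VTA libraries and 0.0646 CPM in BLA libraries. Lhx4 met the count minimum in VTA only, which largely set its direction. Lhx3 and Lhx9 were not called. Lhx9 had a log2 fold change of 1.09 ± 0.96 (SE).

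The Dlx genes, which specify GABAergic neurons of the subpallium, were lower in VTA in both of their tested genomic pairs. Dlx1 had between 1.08 and 9.87 CPM (median 4.90) in VTA libraries, against 16.02 to 26.3 CPM (median 21.5) in BLA libraries. Dlx1 fell by 2.10 ± 0.55 and its neighbour Dlx2 by 2.29 ± 0.59 on the log2 scale (SE; edgeR adjusted p = 0.0127 for Dlx1). Dlx5 fell by 2.80 ± 0.67 and its neighbour Dlx6 by 2.60 ± 0.59 (SE). The regions did not overlap for any of these 4 genes. The antisense transcripts Dlx1as and Dlx6os1 were lower too, with log2 fold changes of -1.81 ± 0.23 and -3.08 ± 0.66 (SE). The strand setting of the counting is not given in the sources used here, and Dlx1 shares 335 exon bases with Dlx1as, so their reads may not be separate. Dlx4, which is best known outside the brain, had between 0.0476 and 0.207 CPM in VTA libraries and was at 0 in all BLA libraries, at least 11.7-fold higher in VTA against a floor of 3 counts over the BLA libraries. The count minimum, met by Dlx4 in VTA only, largely set its direction.

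Six3, Meis2 and Pax6 were also lower in VTA. Six3, a factor of the rostral forebrain that adult striatal neurons keep, had between 0.162 and 2.30 CPM (median 0.957) in VTA libraries, against 2.18 to 9.59 CPM (median 4.502) in BLA libraries. Its log2 fold change was -2.39 ± 0.65 (SE; edgeR adjusted p = 0.0135), and the regions overlapped. Meis2, abundant in striatum and amygdala, had between 7.91 and 98.5 CPM (median 22.7) in VTA libraries, against 157 to 287 CPM (median 232) in BLA libraries. It fell by 2.89 ± 0.56 on the log2 scale (SE; edgeR adjusted p = 0.00264). Pax6, a factor of forebrain progenitors and some adult neurons, had a median of 6.02 CPM in VTA libraries and 15.6 CPM in BLA libraries, a log2 fold change of -1.29 ± 0.17 (SE).

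The BLA-side calls differed with the libraries that entered. Without the 3 BLA libraries rich in ribosomal RNA counts, 10 of 62 members tested were called lower, rather than 17 of 60. Of all genes, 15.1% rather than 23.7% were then called lower. Dlx1, Dlx2, Dlx5, Dlx6, Lhx8 and Six3 then missed the threshold, as did Pou4f2 on the VTA side, and for the BLA-side genes edgeR adjusted p lay between 0.0678 and 0.137, with log2 fold changes between -1.88 and -3.975. With the 6 isolated libraries only, 53 members were tested, 5 called lower and 18 higher, against 14.4% and 16.8% of all genes. Dlx1, Lhx2, Lhx8, Six3 and Meis2 then had edgeR adjusted p of 0.101, 0.0877, 0.441, 0.127 and 0.164. Dlx2, Dlx5 and Dlx6 missed the threshold too, with edgeR adjusted p of 0.0592, 0.109 and 0.0648. With the 6 group-housed libraries only, Dlx1 alone of these missed the threshold (edgeR adjusted p = 0.0679), and 40.3% of all genes were called. Why these sets differed was not tested.

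**Figure D2:**
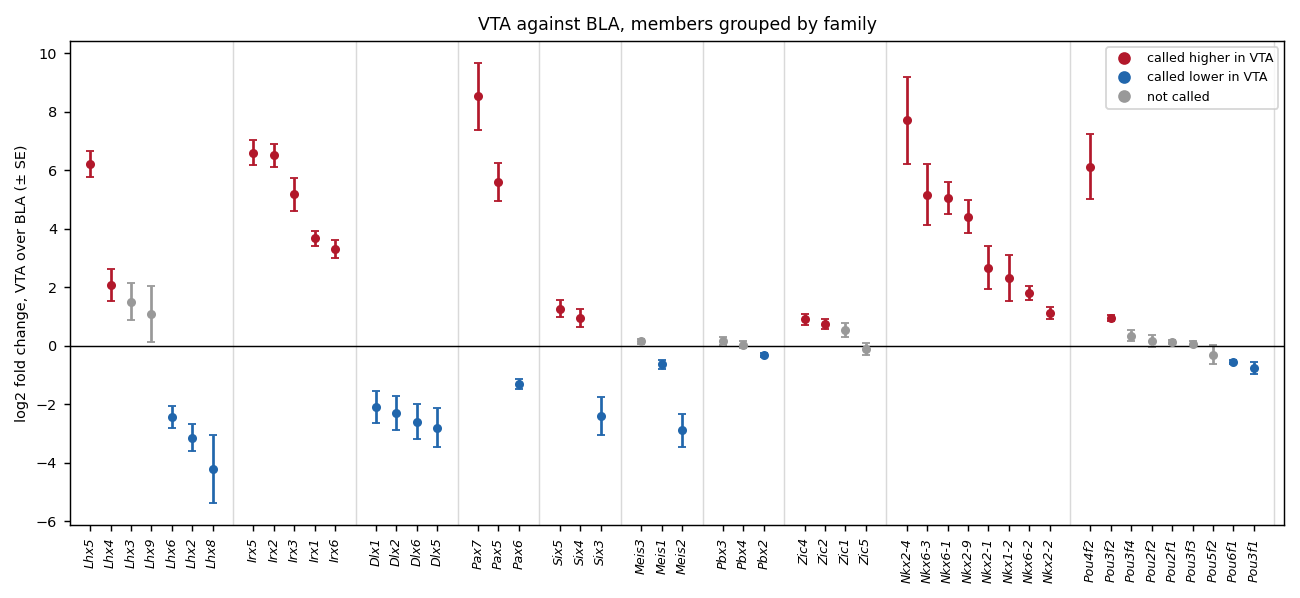
Log2 fold change of VTA over BLA with its SE (edgeR), 6 libraries a region, for tested members with more than 3 counts in BLA, grouped by family. The Irx and Nkx groups drawn lie above 0, the Dlx group below it, and the Pbx, Zic and Pou groups mostly near it.

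Of the 5 Pax members, only Pax6 met the count minimum in each region. Pax3, Pax5, Pax7 and Pax8 met it in VTA only, so their direction was largely set by it. Pax7, a dorsal midbrain factor that marks the adult tectum, had between 0.721 and 12.8 CPM (median 6.31) in VTA libraries, against 0 to 0.163 CPM (median 0) in BLA libraries. It rose by 8.53 ± 1.14 on the log2 scale (SE; edgeR adjusted p = 0.000621). Group-housed BLA libraries were at 0 for Pax7, so the size of its change is uncertain. It lay between 5.08 and 11.95 with other tools, scalings, filters and library sets. Pax3, the paralogue of Pax7, had between 0.398 and 2.87 CPM (median 1.65) in VTA libraries. It had 654 counts over the VTA libraries, against 2 counts in BLA, both in 1 library, a ratio of 212 (95% counting interval 58.5 to 1754). Pax5, which shapes the border of midbrain and hindbrain, had between 1.90 and 13.9 CPM (median 2.77) in VTA libraries, against 0.0304 to 0.363 CPM (median 0.0602) in BLA libraries. It rose by 5.59 ± 0.64 on the log2 scale (SE; edgeR adjusted p = 3.6e-05). Pax8, its relative at the same border, had between 0.348 and 1.68 CPM in VTA libraries and was at 0 in all 6 BLA libraries, at least 58.6-fold higher in VTA against a floor of 3 counts over the BLA libraries.

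The Nkx genes of the ventral neural tube and hypothalamus were higher in VTA. Nkx2-4, a hypothalamic relative of Nkx2-1, had between 0.166 and 5.43 CPM (median 2.19) in VTA libraries, against 0 to 0.121 CPM (median 0) in BLA libraries. Its log2 fold change had a wide error, 7.70 ± 1.49 (SE; edgeR adjusted p = 0.00398). Group-housed BLA libraries were at 0 for Nkx2-4, and the change lay between 6.16 and 10.6 with other tools, scalings, filters and library sets. Nkx2-1, which marks both the hypothalamus and the medial ganglionic eminence, had a median of 4.30 CPM in VTA libraries and 0.364 CPM in BLA libraries, and its regions overlapped. The log2 fold change was 2.67 ± 0.75 (SE; edgeR adjusted p = 0.0155). Nkx6-1 and Nkx2-9, ventral tube factors, had log2 fold changes of 5.04 ± 0.56 and 4.41 ± 0.56 (SE), with no overlap. Nkx6-2, a ventral tube factor that oligodendrocytes also express, had between 14.8 and 23.1 CPM (median 18.9) in VTA libraries, against 3.59 to 8.55 CPM (median 4.59) in BLA libraries. It rose by 1.81 ± 0.24 on the log2 scale (SE; edgeR adjusted p = 8.82e-05). Nkx2-2, which oligodendrocyte precursors use, rose by 1.11 ± 0.20 (SE). The 6 oligodendrocyte markers moved with both, summing to between 6354 and 12560 CPM in VTA libraries and 2560 to 5161 CPM in BLA libraries, and their part in these 2 differences was not tested. Both genomic Nkx pairs had each member called higher, Nkx2-1 with Nkx2-9 on chromosome 12 and Nkx2-2 with Nkx2-4 on chromosome 2. However, Nkx2-4, Nkx2-9 and Nkx6-1 met the count minimum in VTA only, so their direction was largely set by it. The likeness within each pair was thus partly set by the minimum.

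The POU genes differed by class. Pou4f1 and Pou4f2, class 4 factors of the habenula, tectum and sensory neurons, had at most 4 counts each over all BLA libraries. Both met the count minimum in VTA only, so their direction was largely set by it. Pou4f1 had between 1.87 and 7.99 CPM (median 4.15) in VTA libraries, against 0 CPM in 5 BLA libraries and 0.121 CPM in the other. With 1589 counts over the VTA libraries and 2 over the BLA libraries, the ratio was 515 (95% counting interval 142 to 4257). Pou4f2 had a median of 0.909 CPM in VTA libraries and 0 CPM in BLA libraries, with a log2 fold change of 6.12 ± 1.11 (SE; edgeR adjusted p = 0.000987). Class 3 genes, broad neural factors, were expressed in both regions. Pou3f3, the most abundant POU gene per kilobase in VTA, had medians of 69.4 CPM in VTA libraries and 65.2 CPM in BLA libraries, a log2 fold change of 0.07 ± 0.09 (SE). Pou3f2 had medians of 38.4 CPM in VTA libraries and 20.9 CPM in BLA libraries, and rose by 0.94 ± 0.11 on the log2 scale (SE; edgeR adjusted p = 6.04e-06). Pou3f1 and Pou6f1 were called lower, by 0.76 and 0.56 on the log2 scale. Pou2f1, which is active in most cell types, had means of 29.6 ± 2.03 CPM in VTA libraries and 27.3 ± 1.85 CPM in BLA libraries (SD, n = 6 each) and was not called. Pou4f3 and Pou2f3 were too low to be tested.

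Apart from Meis2 and Six3, the Pbx, Meis, sine oculis and Zic genes had called differences of at most 1.27 on the log2 scale. Pbx2, a partner of many homeodomain proteins, had between 35.9 and 43.2 CPM (median 36.6) in VTA libraries, against 44.9 to 50.6 CPM (median 47.7) in BLA libraries, and fell by 0.31 ± 0.06 on the log2 scale (SE; edgeR adjusted p = 0.00054). Meis1 fell by 0.64 ± 0.14 (SE), and neither gene overlapped between the regions. Pbx3, Pbx4 and Meis3 were not called, with log2 fold changes of 0.16, 0.04 and 0.15. Six5 rose by 1.27 ± 0.30 and Six4 by 0.96 ± 0.31 (SE; edgeR adjusted p = 0.0217 for Six4). Six4 missed the threshold when 1 of 4 libraries was left out (isolated VTA library 1, group-housed VTA library 1, or group-housed BLA library 1 or 3), with edgeR adjusted p between 0.05003 and 0.0588. Of the Zic genes, Zic2 rose by 0.74 ± 0.17 and Zic4 by 0.90 ± 0.19 on the log2 scale (SE). Zic1, the most abundant, had a log2 fold change of 0.54 ± 0.24 (SE; edgeR adjusted p = 0.0906) and passed in DESeq2 (adjusted p = 0.0311). With isolated libraries only, Zic4 and Zic2 were not called (edgeR adjusted p = 0.708 and 0.165). Pbx2, Six5 and Six4 also missed the threshold there (edgeR adjusted p = 0.143, 0.130 and 0.0696). With group-housed libraries only, Six4 missed it (edgeR adjusted p = 0.138), while Zic1 passed (edgeR adjusted p = 0.00713).

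Set against each other per kilobase of exon, the members ranked differently in the 2 regions. Among the genes named here, the highest mean levels in VTA were those of Pbx2 at 10.6, Nkx6-2 at 9.92, Pou3f3 at 9.65 and Pou6f1 at 8.04 CPM per kilobase. In BLA they were those of Meis2 at 18.96, Pbx2 at 13.1, Pou6f1 at 11.9 and Pou3f3 at 9.17 CPM per kilobase. Factors close to 0 in BLA were lower on this scale, Irx2 at 2.41, Lhx5 at 2.80 and Pou4f1 at 0.904 CPM per kilobase in VTA. A mean of at least 1 CPM was reached by 29 members in both regions, by 17 in VTA only, by 5 in BLA only and by 11 in neither.

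The members were also counted by their textbook position, beside the 24.1% of all genes called higher and the 23.7% called lower. The position lists were chosen with earlier results of these data known, so their counts are descriptions, not tests. Of 13 members placed in the telencephalon, 11 were called lower in VTA and 1, Nkx2-1, higher, and Zic1 was not called, with a median log2 fold change of -2.39, against 0.02 over all genes. The count minimum was met in each region by 12 of these 13, and in BLA only by Lhx8. Of 21 genes of the same families placed in diencephalon, midbrain or hindbrain, 18 were tested and 17 called higher. However, 14 of the 18 met the count minimum in VTA only, so that their direction was largely set by it. Of the 4 that met it in each region, Irx1, Irx6 and Nkx2-2 were called higher and Lhx9 was not called. Of 33 other homeobox genes of position, 20 were tested, 9 called higher and 5 lower. Lmx1a and Lmx1b, which dopaminergic neurons require, had medians of 16.2 and 7.46 CPM in VTA libraries, against 0.0454 and 0.127 CPM in BLA libraries. En1, kept on in midbrain dopaminergic neurons, and Otx2, a forebrain and midbrain factor, had medians of 5.58 and 6.72 CPM in VTA libraries, against 0.0366 and 0 CPM in BLA libraries. Of 18 partner proteins of these factors, 6 were called higher and 10 lower, with a median of -0.39. Pbxip1, which binds Pbx proteins, rose by 0.60 ± 0.06, while Pknox2, a TALE partner of Pbx, fell by 1.35 ± 0.13 and Ldb1, the bridging partner of LIM domains, fell by 0.42 ± 0.06 on the log2 scale (SE). Dach2, a relative of Dach1, rose by 1.03 ± 0.15 (SE).

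Within a region the members varied more from library to library than most genes did. Among genes with a mean of at least 1 CPM in VTA, the highest library exceeded the lowest at least 4-fold for 15 of 46 members (32.6%), against 3.49% of 16584 genes. The median ratio of highest to lowest VTA library was 2.31 for members and 1.42 for all genes. In BLA the same held for 4 of 34 members (11.8%), against 1.47% of 16357 genes, with median ratios of 1.64 and 1.38. These shares are descriptions and were not tested.

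The VTA libraries that were high differed by gene. Of 13 members placed in the telencephalon, 9 had their highest VTA value in isolated library 3, while Dlx2 and Zic1 peaked in group-housed library 1, Pou3f1 in group-housed library 3 and Nkx2-1 in isolated library 2. Meis2 had 42.7, 7.91 and 98.5 CPM in isolated VTA libraries 1 to 3, against 11.9, 17.3 and 28.2 CPM in the group-housed ones. Lhx2 had 4.20, 1.29 and 9.72 CPM in the isolated libraries, against 2.79, 1.60 and 0.892 CPM in the group-housed ones. Lhx8 reached 2.71 CPM in isolated library 3 and at most 0.271 CPM in the other 5. In the same library Slc17a7, the vesicular glutamate transporter of cortical neurons, had 232 CPM, against 2.88 to 23.8 CPM in the other 5. The 12 striatal markers summed to 738 CPM there and to 289 to 342 CPM in the others, and the 12 choroid plexus markers to 3457 CPM, with 244 CPM in isolated library 1 and at most 30.1 CPM in the rest. The part of these markers in the levels was not tested.

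A second set, Nkx2-1 and Nkx2-4, was highest in the 3 VTA libraries where hypothalamic markers summed highest, though not in the same order throughout. Nkx2-1 had 1.29, 7.03 and 0.616 CPM in isolated VTA libraries 1 to 3, against 5.80, 6.69 and 2.81 CPM in the group-housed ones. Nkx2-4 had 0.384, 2.98 and 0.166 CPM in the isolated libraries, against 4.18, 5.43 and 1.40 CPM in the group-housed ones. Both were thus low in isolated libraries 1 and 3 and highest in 3 libraries drawn from both groups. The 8 hypothalamic markers summed to 39.5, 79.4 and 17.9 CPM in the isolated libraries, against 147, 184 and 33.6 CPM in the group-housed ones. Pmch, the precursor of melanin-concentrating hormone in the lateral hypothalamus, had 0.203, 4.56 and 0.0999 CPM in the isolated libraries, against 37.2, 52.3 and 2.94 CPM in the group-housed ones.

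Pax5, Pax7 and Pax8 were highest in group-housed VTA library 3, and Pax3 in group-housed library 2. Pax5 had 1.90, 3.15 and 2.33 CPM in isolated VTA libraries, against 2.40, 3.70 and 13.9 CPM in the group-housed ones. Pax7 had 6.79, 0.721 and 2.45 CPM in the isolated libraries, against 5.83, 9.15 and 12.8 CPM in the group-housed ones. That library was also highest in En1, at 13.2 CPM, and in Tph2, the serotonergic tryptophan hydroxylase, at 92.1 CPM, against 0.458 to 6.06 CPM in the other 5 VTA libraries. Lhx9 and Pou4f2, by contrast, peaked in isolated VTA library 1, at 14.9 and 3.61 CPM, and were next highest in group-housed library 1, at 8.5 and 1.6 CPM. Over the 46 members above 1 CPM, group-housed library 3 held the highest VTA value for 14 and isolated library 1 for 13.

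**Figure D3:**
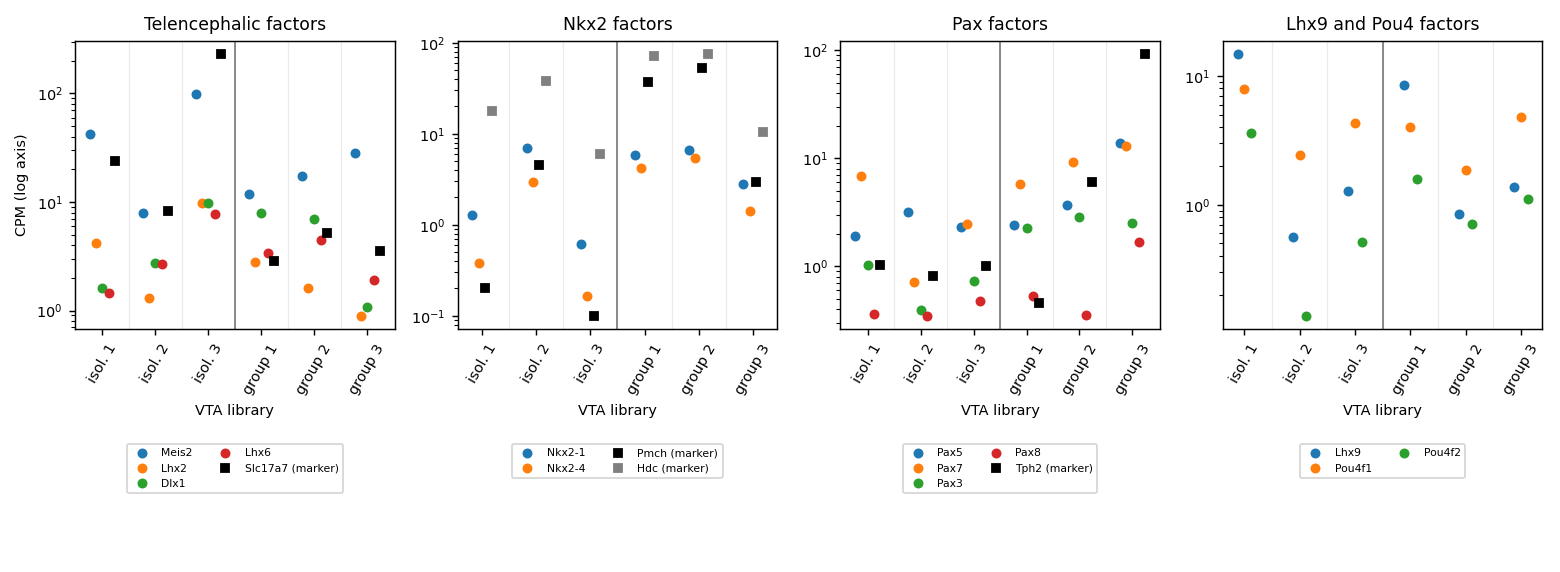
CPM on a log axis in each of the 6 VTA libraries, isolated to the left of the dark line and group-housed to its right, for members that varied within VTA (circles) and for markers of neighbouring tissue (squares). Meis2 and Slc17a7 are highest in isolated library 3, Nkx2-1 and Pmch are low in isolated libraries 1 and 3, and Pax5 and Tph2 are highest in group-housed library 3.

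In BLA, isolated library 1 had the highest values of Lhx8 and Six3, but not of all telencephalic factors. Meis2 and Dlx6 were also highest there, at 287 and 16.7 CPM, against up to 271 and 13.6 CPM in the other BLA libraries. Dlx1 was lowest there, at 16.02 CPM, and Dlx2 and Dlx5 peaked in group-housed libraries 1 and 2. Lhx8 had 8.21, 1.70 and 1.00 CPM in isolated BLA libraries 1 to 3, against 4.11, 1.82 and 1.33 CPM in the group-housed ones. Six3 had 9.59, 3.70 and 4.77 CPM in the isolated libraries, against 5.77, 4.24 and 2.18 CPM in the group-housed ones. The 12 striatal markers summed to 3381, 1798 and 1282 CPM in the isolated libraries, against 2244, 1770 and 1002 CPM in the group-housed ones. Lhx9, expressed in part of the amygdala, was also lowest in isolated library 1, at 0.340, 2.14 and 2.55 CPM in the isolated libraries, against 1.68, 2.91 and 3.31 CPM in the group-housed ones.

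Isolation was compared with group housing within each region, the comparison that the series was set up for. In BLA, 0 of 39 members tested were called, and 0% of the 22110 genes tested, by edgeR. DESeq2 and limma voom called 0 members too, and 0.0271% and 0% of all genes. At an unadjusted p under 0.05 there was 1 member in edgeR, Irx6, against 1.99% of all genes. There were 0 members in DESeq2, against 2% of all genes, and 1 in limma voom, against 2.73%. Irx6 had 0.114, 0.228 and 0.121 CPM in isolated BLA libraries, against 0.607, 0.363 and 0.283 CPM in the group-housed ones. Irx6 and Irx1 had groups that did not overlap, both lower in isolated BLA, where 7.11% of all genes did not overlap, 4.14% higher and 2.96% lower. Of the members above 1 CPM, Dlx1 had the smallest p, with 16.02, 20.6 and 21.8 CPM in isolated BLA libraries, against 21.3, 24.3 and 26.3 CPM in the group-housed ones. Its log2 fold change was -0.30 ± 0.14 (SE; edgeR adjusted p = 1). Next came Zic4 at 0.69 ± 0.33, Lhx2 at -0.24 ± 0.13, Zic5 at -0.49 ± 0.27 and Meis3 at 0.19 ± 0.13 (SE), each with an edgeR adjusted p of 1.

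In VTA, 0 of 58 members tested were called by edgeR, against 0.00415% of the 24082 genes, a single gene. DESeq2 called 2 members and 1.72% of all genes, and limma voom 0 members and 0.0083% of all genes. At an unadjusted p under 0.05 there were 8 members in edgeR, against 18.3% of all genes. There were 11 members in DESeq2, against 18.6% of all genes, and 12 in limma voom, against 27.3%. The groups did not overlap for 1 member higher and 7 lower in isolated VTA, and for 29.1% of all genes, 17.5% higher and 11.6% lower. The median log2 fold change was -0.15 over the members and -0.001 over all genes. The 5 members with the smallest p were Pax3, Zic4, Six5, Zic2 and Nkx6-1.

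Pax3 had 1.04, 0.398 and 0.732 CPM in isolated VTA libraries, against 2.26, 2.87 and 2.497 CPM in the group-housed ones. All 3 isolated libraries lay below all 3 group-housed ones, and the log2 fold change was -1.90 ± 0.34 (SE; edgeR adjusted p = 0.236). DESeq2 called it (log2 fold change -1.90, adjusted p = 9.643e-05), as did edgeR without a filter on low counts (adjusted p = 0.0290) and without isolated VTA library 2 (-1.60, adjusted p = 0.0316). Limma voom did not call it (adjusted p = 0.0875). Without isolated libraries 1 and 3, rich in choroid plexus markers, the log2 fold change was -2.69, with 1 isolated library left (edgeR adjusted p = 0.284). Zic4 had 2.46, 1.78 and 1.95 CPM in isolated VTA libraries, against 3.53, 3.29 and 3.56 CPM in the group-housed ones, again with no overlap. Its log2 fold change was -0.81 ± 0.20 (SE; edgeR adjusted p = 0.236), and DESeq2 called it (adjusted p = 0.0162).

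The other Zic genes and Six5 were less far apart. Zic2, a factor of dorsal and midline neural tissue, had 3.90, 3.63 and 3.84 CPM in isolated VTA libraries, against 5.07, 4.77 and 5.73 CPM in the group-housed ones, a log2 fold change of -0.51 ± 0.16 (SE; edgeR adjusted p = 0.236). Zic1, the genomic neighbour of Zic4, had 12.3, 6.85 and 9 CPM in the isolated libraries, against 20.4, 11.99 and 12.03 CPM in the group-housed ones, with overlap and a log2 fold change of -0.73 ± 0.28 (SE). Zic1 and Zic4 share 60 exon bases on opposite strands. Six5 had 1.96, 1.77 and 1.63 CPM in the isolated libraries, against 2.72, 2.90 and 2.69 CPM in the group-housed ones, a log2 fold change of -0.69 ± 0.19 (SE; edgeR adjusted p = 0.236). Nkx6-1 went the other way, at 2.73, 1.31 and 2.43 CPM in the isolated libraries, against 0.547, 0.662 and 1.32 CPM in the group-housed ones. Its groups overlapped by 1 library, and its log2 fold change was 1.27 ± 0.40 (SE; edgeR adjusted p = 0.236).

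Markers of neighbouring tissue differed among the VTA libraries, and the sums of the first 3 lists given here overlapped between the groups. The 12 choroid plexus markers summed to between 24.4 and 3457 CPM in isolated VTA libraries, against 21.6 to 30.1 CPM in the group-housed ones. The 8 hypothalamic markers summed to between 17.9 and 79.4 CPM in the isolated libraries, against 33.6 to 184 CPM in the group-housed ones, and the 3 serotonergic ones to between 0.883 and 1.27 CPM, against 0.503 to 136 CPM. The 9 cortical and basolateral glutamatergic markers did not overlap. They summed to between 170 and 555 CPM in the isolated libraries, against 132 to 145 CPM in the group-housed ones, and 0 of the 9 were called. No marker of these lists was at 0 in every VTA library. Their part in the values of Pax3, the Zic genes, Six5 and Nkx6-1 was not tested.

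**Figure D4:**
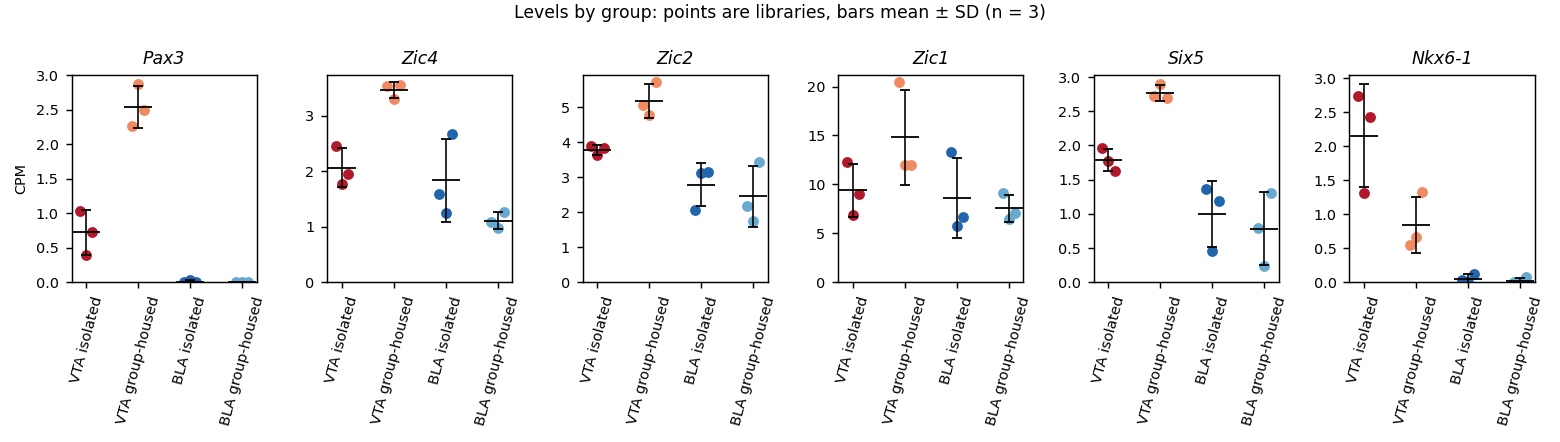
CPM in each library of the 4 groups for 6 members (points), with the mean and SD of each group (bars, n = 3). Pax3, Zic4, Zic2 and Six5 are lower in all 3 isolated than in all 3 group-housed VTA libraries, and Pax3 and Nkx6-1 are near 0 in BLA.

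The difference between the response of VTA and that of BLA was tested as a contrast over the 12 libraries. By edgeR 0 of 60 members were called, and 0% of the 25009 genes. DESeq2 and limma voom called 0 members too, and 0.528% and 0% of all genes. At an unadjusted p under 0.05 there were 2 members in edgeR, against 14.9% of all genes. There were 5 members in DESeq2, against 15.4% of all genes, and 8 in limma voom, against 21.7%. One of the 2 in edgeR was Zic4, with a log2 difference of -1.44 ± 0.39 (SE; edgeR adjusted p = 0.303) between its response in VTA and its response in BLA. Zic4 had 1.59, 1.24 and 2.67 CPM in isolated BLA libraries, against 1.08, 0.969 and 1.27 CPM in the group-housed ones. The other was Pax3, which had 2 counts in BLA, so no size is given for its difference.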

How the data were processed

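The deposited values are raw read counts per gene, 54429 entries per library, and the tools listed in the submitters' processing notes are HTSeq, TopHat2 and cutadapt, with mm10. Per the labels' protocols, stranded libraries were made from 1 ug of Trizol RNA after depletion of ribosomal RNA. Tool versions, the annotation, the strand setting and the treatment of mates were not stated. The per-sample tables were used; the series table differed at 2 entries, none a member.

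Genes kept by filterByExpr (minimum count 10, total 15) were tested with edgeR 4.0.16 in R 4.3.3 (TMM, robust quasi-likelihood, Benjamini-Hochberg over all genes), the regions and the difference of responses on 12 libraries and isolation on the 6 of its region. SEs are the log2 fold change divided by the root of F. Exon lengths and positions came from GENCODE for GRCm38 (98.8% of names matched). The members and gene lists were chosen with earlier results of these data known. Genes named are up to 3 called members per family with the largest change and a mean of at least 1 CPM, plus the most abundant; for isolation, the 5 smallest p above 1 CPM; for the difference, p under 0.05; and 4 per other list. Others in the text were chosen after their values were seen. Some members are counted in the totals but not reported here by name. Scripts were tested on simulated counts. Alternatives were DESeq2 1.42.0, limma 3.58.1 voom, other scalings, filters and library sets. Figures used matplotlib 3.10.9.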

Additional observations from a re-analysis of the deposited data

How the results depend on the processing

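Of 60 members tested, 17 were called lower in VTA than in BLA. The count was 10 of 62 without the 3 BLA libraries rich in ribosomal RNA counts. With isolated libraries only it was 5 of 53, where 18 rather than 29 were called higher. Of all genes, 33.3% and 31.2% were called in those fits, against 47.7% in the fit of 12 libraries. With group-housed libraries only, 43 of 59 members and 40.3% of all genes were called, and the cause of these differences was not tested. Leaving out 1 library at a time gave between 27 and 32 members higher and between 16 and 18 lower, and no member named by the rule changed direction in any setting. In isolated against group-housed VTA, 0 members were called lower in edgeR, 2 in DESeq2 (Pax3 and Zic4; 1.22% of all genes were called lower) and 1 without a filter (Pax3; 0.0156%). Leaving out 1 library gave between 0 and 3, the 3 being Pax3, Pou2f2 and Nkx2-1 of 60 tested without isolated VTA library 2, where 3.33% of all genes were called lower and 4.81% in all. Counts of 0 in BLA and in the difference held in every setting run. Upper-quartile scaling moved the median log2 fold change of all genes to 0.08 between regions. With the replicate number as a block, 49 members were called between regions, 0 in BLA, 0 in VTA and 0 in the difference. Correlations of deviations between libraries of the same number were 0.309, -0.083 and 0.009 in BLA and -0.086, 0.002 and -0.041 in VTA. With 3 libraries a group, these cannot show whether the numbers pair the samples. Members under 1 CPM rest on few counts per library, and differences there may have gone undetected at this depth.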

Other observations

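The 14 names under the count minimum were Pax1, Pax2, Pax4, Pax9, Nkx1-1, Nkx2-3, Nkx2-5, Nkx2-6, Nkx3-2, Dlx3, Six2, Six6, Pou1f1 and Pou5f1. Among them Six6, a factor of the eye field, hypothalamus and pituitary, reached 1.48 and 0.832 CPM in group-housed VTA libraries 1 and 2 and at most 0.0746 CPM in the other 10 libraries. Isl1, a LIM homeodomain gene of hypothalamic and striatal neurons outside the member rule, had 14.8 and 11.6 CPM in the same 2 libraries and between 0.547 and 4.01 CPM in the other 4 VTA libraries. Pitx1, which the anterior pituitary expresses, reached 0.843 CPM in group-housed VTA library 1, with 0.107 CPM or less in the other 11. The 8 Hox genes listed, which mark hindbrain and spinal cord, were too low to be tested, with at most 0.214 CPM in any library.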
